A study of Mus musculus with 8 samples.

Results

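Voltage-gated sodium and calcium channel genes were examined in neural stem and progenitor cells (NSPCs) in which Ash2l had been targeted. Its product belongs to the enzyme complexes that place methyl groups on lysine 4 of histone H3, a mark of active promoters. Members were the protein-coding genes whose symbol begins with Scn and a digit, or with Cacna, Cacnb or Cacng, and they numbered 40 of 55385 genes: 14 sodium channel and 26 calcium channel genes. The cells were sorted by flow cytometry from the dissociated cortex of postnatal day 7 mice. The 4 iKO libraries came from Nestin-CreERT2; Ash2l f/f; tdTomato mice and the 4 WT libraries from Nestin-CreERT2; tdTomato mice, so both groups carried the inducible Cre and the reporter and differed in the floxed allele. The Nestin promoter drives the Cre in neural progenitors. The labels call the libraries biological replicates but name no animal for any of them, and p-values therefore measure only how far these libraries spread, which may be technical. Levels are TPM, which divides by transcript length and sets each library to the same total.

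Voltage-gated channels open when the membrane depolarises. Sodium channel alpha subunits form the pore that carries the upstroke of the action potential, and beta subunits, which are single-pass membrane proteins, alter gating and act in cell adhesion. Calcium channel alpha1 subunits form pores of the L, P/Q, N, R and T types, while alpha2delta and beta subunits govern their delivery to the membrane. Several gamma proteins instead accompany AMPA-type glutamate receptors. In the developing brain Scn3a is known as an early, and Scn1a as a later, alpha subunit, and calcium entry in progenitors feeds into proliferation and differentiation.

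Promoter sequence is shown for the called members whose RefSeq start could be read clear of annotated exons, since ASH2L-containing complexes are known to act at promoters rich in CG dinucleotides. RefSeq (GRCm38.p6) held 41 promoters for 30 of the 40 genes and for 8 of the 11 called genes described below. In 4 of those 8 at least 100 of the 250 bases before the start lay outside every exon of the GENCODE M21 annotation, and that stretch is printed 5′ to 3′ on the gene's strand, with CG in capitals. Scn2b was higher in iKO and the other three were lower.
Scn2b, chr9:45117626-45117781, plus strand: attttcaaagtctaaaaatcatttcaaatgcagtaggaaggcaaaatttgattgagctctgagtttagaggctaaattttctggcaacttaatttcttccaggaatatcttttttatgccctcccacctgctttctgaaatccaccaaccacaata
Cacna1b, chr2:24763201-24763402, minus strand: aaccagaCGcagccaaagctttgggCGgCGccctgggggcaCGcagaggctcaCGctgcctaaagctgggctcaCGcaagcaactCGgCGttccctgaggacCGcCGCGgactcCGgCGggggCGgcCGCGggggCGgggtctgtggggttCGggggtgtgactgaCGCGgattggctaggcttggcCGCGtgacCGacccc
Cacna1s, chr1:136052561-136052749, plus strand: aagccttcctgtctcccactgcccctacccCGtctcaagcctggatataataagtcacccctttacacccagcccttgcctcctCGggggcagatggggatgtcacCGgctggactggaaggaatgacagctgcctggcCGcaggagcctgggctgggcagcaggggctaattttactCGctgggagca
Cacng5, chr11:107915056-107915305, minus strand: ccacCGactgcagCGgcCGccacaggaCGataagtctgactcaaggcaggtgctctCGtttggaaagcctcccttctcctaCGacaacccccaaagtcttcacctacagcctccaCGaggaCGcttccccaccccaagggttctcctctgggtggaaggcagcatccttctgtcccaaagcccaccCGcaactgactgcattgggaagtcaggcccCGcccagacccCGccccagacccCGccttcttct
The printed stretches hold 0 CG in Scn2b, 23 in Cacna1b, 5 in Cacna1s and 12 in Cacng5. Over the full 250 bases the counts were 1 in Scn2b, 29 in Cacna1b, 9 in Cacna1s and 12 in Cacng5. Another Cacng5 promoter, not printed, had 2. The median was 8 in the 41 promoters of the channel genes and 15 in 14615 promoters of genes tested in these cells. A CG was present in 97.6% of the channel promoters and in 98.6% of the promoters of tested genes. Both high and low counts occurred among called members: the promoter of Cacna2d3, which was higher in iKO, had 30 CG, and that of Scn1a, which was lower, had 4. The short motifs GGACAG and CAGCACC, parts of the element bound by the neuronal repressor REST and searched on both strands, were found in 5 and 0 of the 41 channel promoters (12.2% and 0% of them). In all 32851 promoters of the table these shares were 18.7% and 5.73%. The letters TATAA, on either strand, occurred in the 250 bases of Scn2b, Cacna1b and Cacna1s but not of Cacng5, and in 12.9% of promoters of tested genes.

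The library labels were checked first. Ash2l was measured at 7.13 ± 0.714 (iKO) and 17.6 ± 1.33 (WT) TPM (SD, n = 4 each), with a limma adjusted p of 3.82e-06. Each library had between 16089 and 16616 genes at 1 TPM or more, and depth is unknown. The NSPC label was met by Nes (70.6 TPM in iKO, 59.6 in WT), Sox2 (7.48 and 7.14 TPM) and Slc1a3 (1241 and 2039 TPM). Of 16 neural stem cell markers 15 were tested, 3 were higher and 8 lower, and the list summed to 4208 to 4302 TPM in iKO against 4959 to 5056 in WT. These counts, and those of the marker lists below, stand beside 20.7% higher and 31.9% lower among all 16413 tested genes. Summed markers of other cells also differed between the groups. The summed TPM of 17 neuroblast markers was 5881 to 6096 in iKO and 5180 to 5369 in WT, that of 17 mature neuron markers 636 to 659 and 606 to 632, that of 13 astrocyte markers 6070 to 6298 and 8814 to 9079, and that of 10 oligodendrocyte precursor markers 2782 to 2883 and 3542 to 3575. Of 17 tested neuroblast markers 11 were called higher and 3 lower, and of 16 tested mature neuron markers 5 higher and 6 lower. Of 13 tested astrocyte markers 1 was called higher and 11 lower, and of 10 tested precursor markers 1 higher and 8 lower. Summed markers of endothelium ran from 1265 to 1344 (iKO) and from 963 to 997 (WT) TPM (10 higher, 1 lower of 12 tested), those of red blood cells 721 to 840 and 69.98 to 81.1 TPM (5 of 5 tested higher), those of olfactory and airway epithelium 211 to 251 and 18.4 to 23.3 TPM (9 of 12 tested higher, with Bpifa1, Bpifb3 and Ugt2a1 at 0 in every WT library), and those of microglia 610 to 633 and 728 to 780 TPM (1 higher, 7 lower of 10 tested). The part of these markers in the results below was not tested, and in bulk libraries fewer cells of a type and less RNA per cell cannot be told apart. A sex score, the mean log2(TPM + 1) of 4 Y-linked genes minus that of Xist, was -0.82 to -0.26 in iKO and 0.57 to 1.01 in WT, so sex composition and genotype cannot be told apart.

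Of the 40 channel genes, 25 reached 1 TPM in at least 4 libraries and were tested, 6 of them sodium and 19 calcium channel genes. By limma on log2(TPM + 1), 3 were called higher in iKO (Scn2b, Cacna2d3, Cacng4) and 8 lower (Scn1a, Scn3a, Scn3b, Cacna1b, Cacna1c, Cacna1e, Cacna1s, Cacng5) at an adjusted p under 0.05. That is 44% of the 25. Among all 16413 tested genes 52.6% were called, 20.7% higher and 31.9% lower, so the share of called channel genes did not stand above the background. Their median difference was -0.18 log2 units, beside -0.06 over all tested genes. The groups did not overlap for 10 of the 25, beside 49.2% of all tested genes. With the sex score as a covariate none of the 11 remained called, and 423 of all tested genes were called. That score does not overlap between the groups, so this fit cannot part genotype from sex composition. No conclusion is drawn from the lost calls. None of the 25 reached the filter in 1 group alone.

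Among the sodium channel alpha subunits, Scn3a and Scn1a fell, while Scn8a and Scn2a were not called. Scn3a, the alpha subunit prominent before and around birth, was measured at 15.7, 13.9, 9.89 and 11.3 TPM in iKO replicates 1 to 4 and at 29.1, 17.99, 27.8 and 23.1 TPM in WT replicates 1 to 4. Every iKO library lay below every WT library, with WT replicate 2 the lowest of its group. The means were 12.7 ± 2.59 and 24.5 ± 5.07 TPM (SD, n = 4 each), 1.93-fold higher in WT, and limma gave a log2 difference of -0.89 (SE 0.173, adjusted p = 0.00235). Scn1a, whose loss of function causes a severe infant epilepsy in people, had 2.66, 2.97, 2.55 and 2.92 TPM in iKO and 4.46, 3.60, 5.15 and 3.99 TPM in WT. Again the groups did not overlap, and the log2 difference was -0.48 (SE 0.1002, limma adjusted p = 0.00337).

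Scn8a and Scn2a encode the alpha subunits of the axon initial segment, and both had means slightly higher in iKO. Scn8a had 16.3, 18.6, 18.98 and 18.02 TPM in iKO and 14.3, 17.1, 16.6 and 15.9 TPM in WT, so that the groups overlapped and the log2 difference of 0.16 was not called (SE 0.0678, limma adjusted p = 0.0734). It was called higher after quantile normalization (log2 difference 0.24), with trimmed mean factors (0.23, limma adjusted p = 0.0168) and with the length and GC trend removed (0.29, limma adjusted p = 0.00496). With the replicate number as a block its limma adjusted p was 0.0283. With iKO replicate 1 left out its log2 difference was 0.20 (limma adjusted p = 0.0347). Scn2a had 7.72, 9.40, 9.30 and 8.997 TPM in iKO and 7.96, 9.01, 8.43 and 7.17 TPM in WT, with a log2 difference of 0.11 (SE 0.0834, limma adjusted p = 0.305). It was called higher after quantile normalization (0.22, adjusted p = 0.0456) and with the length and GC trend removed (0.25, adjusted p = 0.0324). Scn3a and Scn2a are neighbours on chromosome 2. Within a library Scn3a exceeded Scn2a by 0.46 log2 units on average in iKO and by 1.46 in WT, and these differences overlapped between the groups (exact two-sided permutation p = 0.0571).

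**Figure D1:**
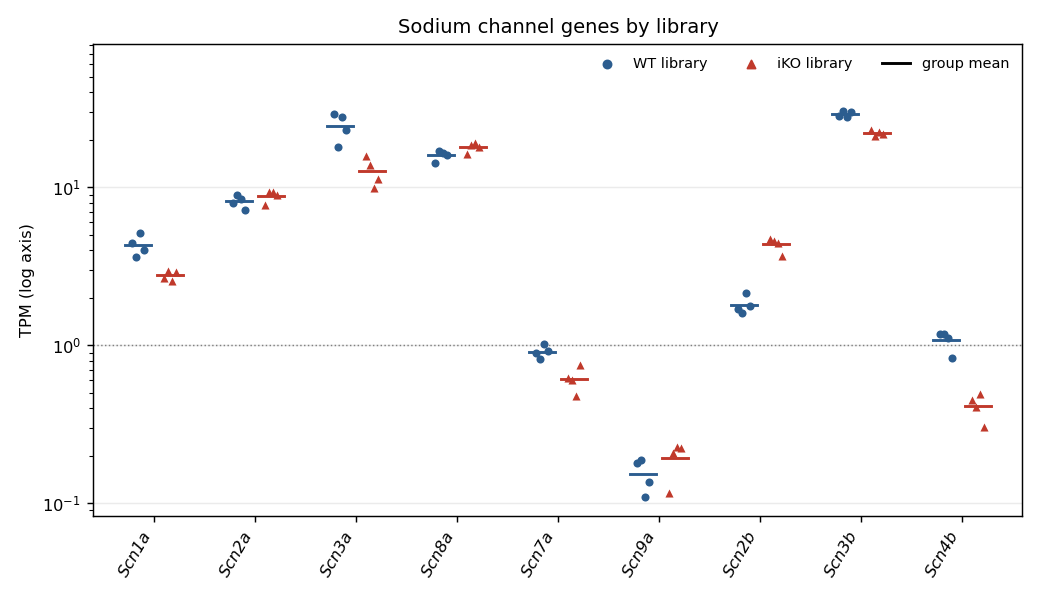
TPM of sodium channel genes in each library on a log axis, with WT libraries as circles, iKO libraries as triangles and group means as bars; the dotted line marks 1 TPM. Scn3a, Scn1a, Scn3b and Scn4b lie lower in all 4 iKO libraries and Scn2b lies higher, while Scn8a and Scn2a overlap.

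The alpha subunit pool thus differed in both summed TPM and make-up, and the lower Scn3a level enters both. The summed TPM of the 4 tested alpha subunits was 42.3 ± 1.81 in iKO and 52.9 ± 4.797 in WT (SD, n = 4 each), and the groups did not overlap. Scn3a held 29.9 ± 5.46% of that sum in iKO and 46.0 ± 6.09% in WT. Scn8a held 42.5 ± 3.44% in iKO and 30.4 ± 4.42% in WT, again without overlap. Scn8a was thus the most abundant of the 4 by mean TPM in iKO, and Scn3a in WT. Shares sum to a whole, so a smaller part for Scn3a enlarges the others. Scn2a held 20.96% and 15.5%, with overlap, and Scn1a held 6.55% and 8.09%, without overlap.

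**Figure D2:**
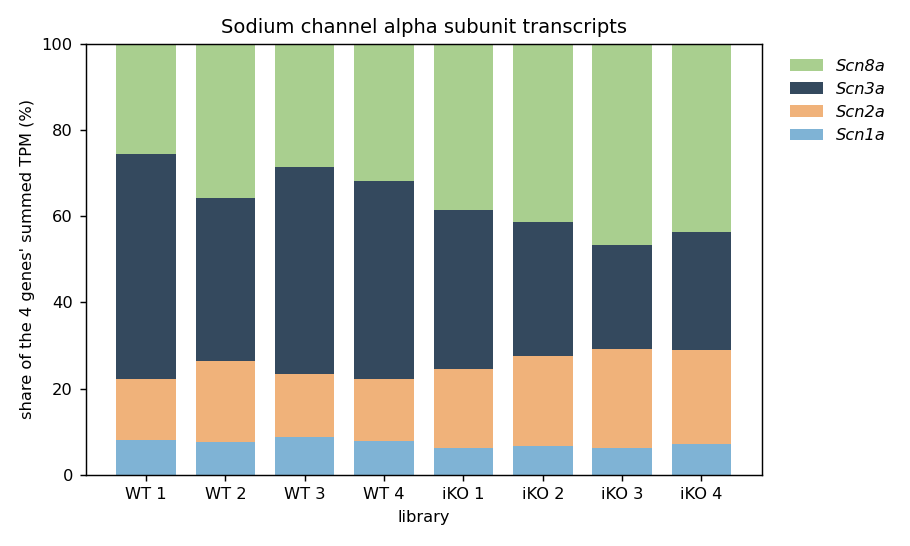
Stacked bars give each gene's share, in percent, of the summed TPM of Scn1a, Scn2a, Scn3a and Scn8a in each of the 8 libraries. The Scn3a share is 24.3% to 37.0% in the iKO libraries and 37.7% to 52.2% in the WT libraries.

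The beta subunits moved in opposite directions. Scn2b, which joins alpha subunits by a disulfide bond, had 4.74, 4.61, 4.44 and 3.69 TPM in iKO and 1.69, 1.61, 2.14 and 1.76 TPM in WT. All 4 iKO libraries lay above all WT libraries, at 2.43-fold the WT mean. The log2 difference of 0.94 (SE 0.0958, limma adjusted p = 5.07e-05) was the largest in size of the 25 at this pseudocount with all libraries. That rank was lost at a pseudocount of 0.1 or 5 and with the sex score. It was also lost without iKO replicate 1, iKO replicate 2, WT replicate 1 or WT replicate 2. Scn3b, a beta subunit that binds without such a bond and is abundant in developing brain, had 23.0, 21.2, 22.4 and 21.7 TPM in iKO and 28.2, 30.5, 28.1 and 29.98 TPM in WT. It was more abundant than Scn2b and Scn4b in every library although it was lower in iKO (log2 difference -0.39, SE 0.0441, limma adjusted p = 9.91e-05).

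Scn4b, known for its part in resurgent sodium current, stayed under the filter. Its values were 0.448, 0.410, 0.488 and 0.305 TPM in iKO and 1.18, 1.18, 1.11 and 0.826 TPM in WT, lower in all 4 iKO libraries (exact two-sided permutation p = 0.0286, the smallest that 70 assignments allow). Scn2b and Scn4b are adjacent protein-coding genes on chromosome 9 in the GENCODE M21 annotation. Within a library log2(TPM + 1) of Scn2b exceeded that of Scn4b by 1.85 to 1.99 in iKO and by 0.26 to 0.60 in WT (exact two-sided permutation p = 0.0286). Such separation was seen in 4 of the 8 adjacent channel pairs compared, most of which hold a gene under the filter. Of the 2 pairs with both genes tested 1 showed it, beside 47.9% of 10236 adjacent pairs of tested protein-coding genes.

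The other sodium channel genes described here were scarce. Scn7a, an atypical sodium channel linked to sodium sensing, had 0.613 ± 0.110 (iKO) and 0.913 ± 0.0838 (WT) TPM (SD, n = 4 each), without overlap (exact two-sided permutation p = 0.0286). Scn9a, known from pain-sensing neurons, had 0.194 and 0.154 TPM, with overlap. Scn4a of skeletal muscle and Scn11a of sensory neurons stayed under 0.1 TPM in every library, and Scn10a of sensory neurons was at 0 in each WT library and no higher than 0.0164 TPM in iKO. Among 10 sensory and peripheral neuron markers, Mrgprd was likewise at 0 in all 8 libraries and 2 were tested, both lower in iKO, with a summed TPM of 2.53 to 3.21 in iKO and 3.36 to 6.53 in WT.

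The pore-forming calcium channel genes that limma called were all lower. Of 10 alpha1 genes, 8 were tested by limma, 0 were called higher and 4 lower, beside 20.7% and 31.9% of all tested genes. At an unadjusted p under 0.05 the counts were 0 and 6. For the same 8 genes they were 0 and 4 in the authors' deposited table, but the genes were not the same. Those 4 were Cacna1b, Cacna1d, Cacna1e and Cacna1h, whereas limma called Cacna1b, Cacna1c, Cacna1e and Cacna1s. The authors' deposited table also called Cacna1i, a gene under the filter, higher. The summed TPM of the 8 was 33.5 ± 1.505 in iKO and 42.9 ± 0.456 in WT (SD, n = 4 each), without overlap. Unlike the sodium channel pool, no single alpha1 gene had a share of this sum that separated the groups: Cacna1c, the leading gene, held 34.4% in iKO and 32.6% in WT.

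Among L-type genes, Cacna1c, a main L-type pore of brain and heart, had 11.3, 11.4, 11.4 and 11.9 TPM in iKO and 13.05, 14.9, 14.9 and 13.1 TPM in WT. The groups did not overlap, and the log2 difference was -0.26 (SE 0.0585, limma adjusted p = 0.00561); it was -0.12 (adjusted p = 0.105) once a trend with transcript length and GC content had been removed. Cacna1d, the other L-type pore of neurons, had 4.13, 4.804, 2.76 and 3.80 TPM in iKO and 6.52, 5.89, 4.13 and 4.97 TPM in WT. Its groups overlapped and it was not called (log2 difference -0.39, SE 0.158, limma adjusted p = 0.0649), but it was called with iKO replicate 2 left out (-0.48, adjusted p = 0.0375) or WT replicate 3 left out (-0.49, adjusted p = 0.0301).

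Cacna1s, the L-type pore of skeletal muscle, was also listed, at 4.92, 3.93, 5.38 and 4.67 TPM in iKO and 5.74, 6.63, 7.06 and 6.23 TPM in WT. All iKO libraries lay below all WT libraries (log2 difference -0.38, SE 0.0938, limma adjusted p = 0.00863), and after quantile normalization the adjusted p was 0.0508. Of 15 muscle markers 7 were tested, 3 higher and 1 lower in iKO; their summed TPM was 40.0 to 54.6 in iKO and 20.8 to 21.9 in WT. Among them the light chain gene Mylpf had 24.6 and 8.68 TPM and the troponin gene Tnnt1 8.94 and 2.07 TPM in iKO and WT, and the muscle actin gene Acta1 was at 0.0607 and 0.0908 TPM. Cacna1s moved opposite to that sum, and the part of muscle RNA in its level was not tested. An antisense gene, Gm37759, covers 19.98% of the exonic bases of Cacna1s, and was itself at 0.102 (iKO) and 0.0719 (WT) TPM. How the authors treated strand in counting is not given in the sources used here. Reads of such pairs therefore cannot be told apart.

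Of the pore genes known from synapses, limma called Cacna1e and Cacna1b lower and did not call Cacna1a. Cacna1e, the R-type pore, had 2.43, 2.30, 1.96 and 3.10 TPM in iKO and 4.54, 4.84, 3.18 and 4.65 TPM in WT, and the highest iKO value lay just below the lowest WT value. Its log2 difference of -0.62 (SE 0.137, limma adjusted p = 0.00475) was the largest fall among called calcium channel genes. Cacna1b, the N-type pore that triggers transmitter release, had 1.67, 1.69, 1.33 and 1.35 TPM in iKO and 1.97, 2.24, 2.26 and 2.15 TPM in WT. It was lower in all iKO libraries (log2 difference -0.33, SE 0.0889, limma adjusted p = 0.0119), though not past the threshold after quantile normalization (-0.22, adjusted p = 0.0626). Cacna1a, the P/Q-type pore, had 5.31, 5.42, 5.70 and 5.03 TPM in iKO and 6.90, 5.24, 6.27 and 6.49 TPM in WT. WT replicate 2 fell among the iKO values and the gene was not called (log2 difference -0.18, limma adjusted p = 0.1004); without that library the difference was -0.25 (adjusted p = 0.0179).

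The T-type genes, whose channels open at small depolarisations, are Cacna1g and Cacna1h, neither of which limma called, and Cacna1i, which was under the filter. Cacna1g had 1.37, 3.44, 5.32 and 1.30 TPM in iKO and 2.70, 1.35, 2.06 and 4.28 TPM in WT, so its highest value was 4.08-fold its lowest in iKO and 3.17-fold in WT, and no group difference could be told from that spread (log2 difference 0.03, SE 0.365, limma adjusted p = 0.949). Cacna1h had 0.912, 1.36, 1.31 and 1.42 TPM in iKO and 1.79, 1.99, 2.42 and 1.28 TPM in WT. WT replicate 4 lay within the iKO range, the gene was not called (log2 difference -0.34, limma adjusted p = 0.0718), and without that library it was (-0.45, adjusted p = 0.0209). Cacna1i went the other way at a very low level, with 0.194, 0.195, 0.216 and 0.215 TPM in iKO and 0.0477, 0.0730, 0.0725 and 0.0720 TPM in WT. Its groups did not overlap (exact two-sided permutation p = 0.0286). Cacna1f, the retinal L-type pore, averaged 0.00397 (iKO) and 0.137 (WT) TPM, with overlap.

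**Figure D3:**
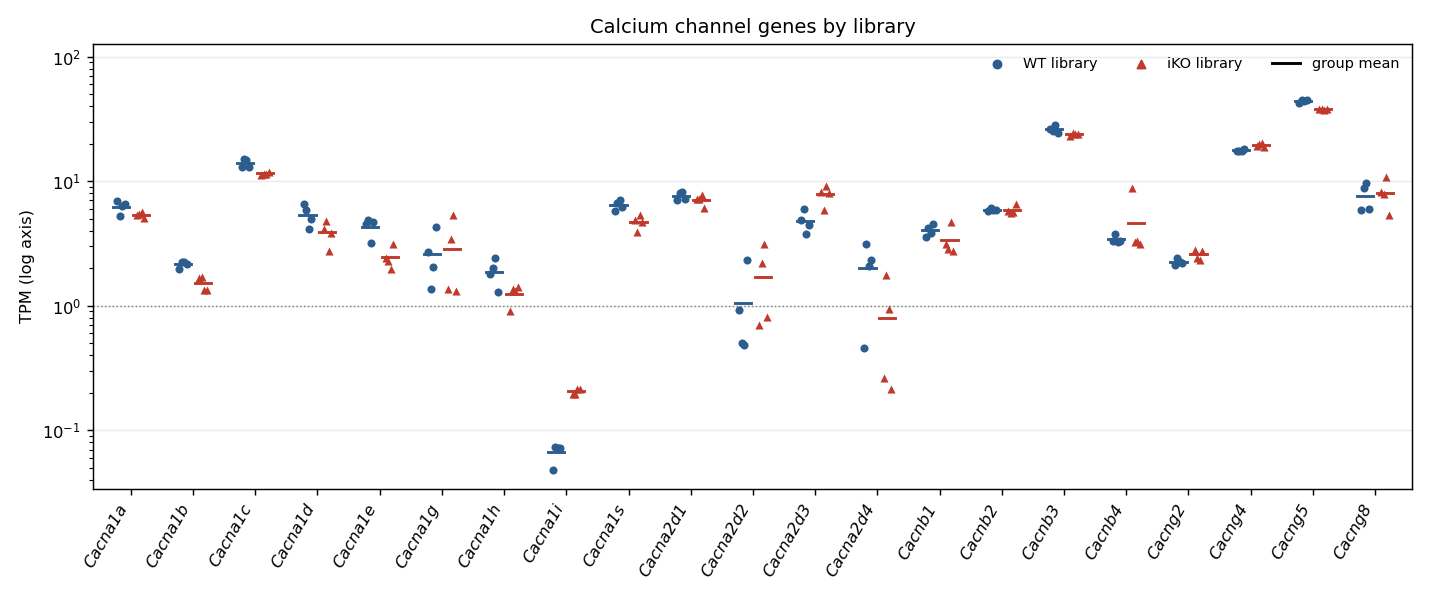
TPM of calcium channel genes in each library on a log axis, with WT libraries as circles, iKO libraries as triangles, group means as bars and a dotted line at 1 TPM. Cacng5 and Cacnb3 lie highest, Cacna1i lies far below 1 TPM in both groups, and the single high Cacnb4 point is iKO replicate 1.

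Of the alpha2delta genes, whose products lie outside the membrane and raise channel density at the surface, Cacna2d3 rose. It had 8.19, 5.87, 9.17 and 8.09 TPM in iKO and 4.88, 6.01, 3.76 and 4.47 TPM in WT, 1.64-fold higher on average in iKO. The groups overlapped at iKO replicate 2 and WT replicate 2, and the log2 difference was 0.61 (SE 0.147, limma adjusted p = 0.00746). Cacna2d1, the most widely expressed member of the family, had 7.05 ± 0.674 (iKO) and 7.58 ± 0.575 (WT) TPM (SD, n = 4 each) and was not called. Cacna2d4 varied between 0.213 and 1.77 TPM in iKO and between 0.461 and 3.13 TPM in WT (log2 difference -0.73, SE 0.366, limma adjusted p = 0.126; without WT replicate 1, -1.04, adjusted p = 0.0202). Cacna2d2, under the filter, lay between 0.699 and 3.11 TPM in iKO and between 0.485 and 2.33 TPM in WT.

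None of the 4 cytoplasmic beta subunit genes was called by limma, beside 52.6% of all tested genes; 1, Cacnb3, had an unadjusted p under 0.05, and 0 were called in the authors' deposited table. Cacnb3, the most abundant, had 23.8 ± 0.542 (iKO) and 26.0 ± 1.54 (WT) TPM (SD, n = 4 each; log2 difference -0.12, limma adjusted p = 0.0632; without WT replicate 4, -0.15, adjusted p = 0.0319). Cacnb2 had 5.88 and 5.87 TPM, and Cacnb1, the isoform of the skeletal muscle channel that also occurs in brain, had 3.35 and 4.04 TPM (without iKO replicate 3 its log2 difference was -0.36, adjusted p = 0.0151). Cacnb4 had 8.88, 3.24, 3.33 and 3.13 TPM in iKO and 3.31, 3.74, 3.27 and 3.31 TPM in WT. One iKO library stood apart from all others, and without it the log2 difference of 0.25 became -0.06. The noncoding gene A430018G15Rik overlaps 15.99% of the exonic bases of Cacnb4 on the opposite strand, with a level of 1.48 (iKO) and 1.55 (WT) TPM.

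The most abundant channel gene of all was a gamma gene, Cacng5, one of the gamma genes whose products accompany AMPA receptors. Cacng5 had 38.1, 37.8, 37.4 and 37.9 TPM in iKO and 42.6, 44.7, 44.1 and 44.8 TPM in WT. The spread within groups was narrow, every iKO library lay below every WT library, and the log2 difference was -0.22 (SE 0.0301, limma adjusted p = 0.000353). Its neighbour on chromosome 11, Cacng4, another AMPA receptor auxiliary gene, had 19.1, 19.7, 20.3 and 18.7 TPM in iKO and 17.3, 17.5, 17.6 and 18.1 TPM in WT. This small rise (log2 difference 0.13, SE 0.0412, limma adjusted p = 0.0227) lost its call without iKO replicate 2 (adjusted p = 0.0554), iKO replicate 3 (0.0652) or WT replicate 1 (0.0522).

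Within a library Cacng5 exceeded Cacng4 by 0.92 log2 units on average in iKO and by 1.27 in WT, a difference that did not overlap between groups (exact two-sided permutation p = 0.0286). Cacng2, the gene mutated in the stargazer mouse, had 2.58 ± 0.240 (iKO) and 2.25 ± 0.129 (WT) TPM, and Cacng8 had 8.04 ± 2.22 and 7.57 ± 1.90 TPM (SD, n = 4 each). Neither was called (limma adjusted p = 0.192 and 0.800), while Cacng2 was called higher after quantile normalization (log2 difference 0.26, adjusted p = 0.0210). Cacng1 and Cacng6, the gamma genes known from muscle, Cacng3 and Cacng7 were under the filter with overlapping groups. In all, 14 channel genes under the filter could be compared, and 3 had groups that did not overlap (Scn4b and Scn7a lower, Cacna1i higher), beside 23.2% of 7700 genes of that kind (14.6% lower, 8.52% higher).

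A comparison of the same libraries is also given in the authors' deposited table, which is not independent of the TPM values. Of the 40 channel genes, 17 had an adjusted p under 0.05 in the authors' deposited table, 5 higher and 12 lower in iKO, beside 33.9% of the 29420 rows with a p-value (17.1% higher, 16.7% lower). All 9 tested genes called in both had the same sign, as did 24 of the 25 tested genes. The exception was Cacna1s, at a log2 fold change of 0.24 (adjusted p = 0.335) in the authors' deposited table and -0.38 on the TPM scale. Cacna1c, called lower on TPM, was at -0.10 (adjusted p = 0.178) in the authors' deposited table. Called only in the authors' deposited table among tested genes were Cacna1d (-0.60), Cacna1h (-0.43), Cacna2d1 (-0.16), Cacna2d4 (-1.15) and Scn8a (0.24).

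For the sodium channel genes the authors' deposited table gave log2 fold changes of -0.99 for Scn1a, -0.69 for Scn3a, 1.35 for Scn2b, -0.34 for Scn3b and -1.31 for Scn4b. For Cacna1i the authors' deposited table gave 1.68 (adjusted p = 0.000375). The pair of scales weighed transcripts differently for some genes. The mean signal of the authors' deposited table, per TPM and per kb of the longest transcript, had quartiles of 4.78, 6.71 and 8.28 over all tested genes. Genes under 4.78 included Cacna1s (1.46), Cacna1a (1.84), Cacng8 (1.92), Cacna2d4 (2.86), Cacna1c (3.19) and Scn8a (3.54). Cacna1d (3.67), Scn2a (3.71), Cacna1e (3.72) and Scn3a (3.98) were also among them. Whether shorter transcripts of these genes were assigned was not tested.

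**Figure D4:**
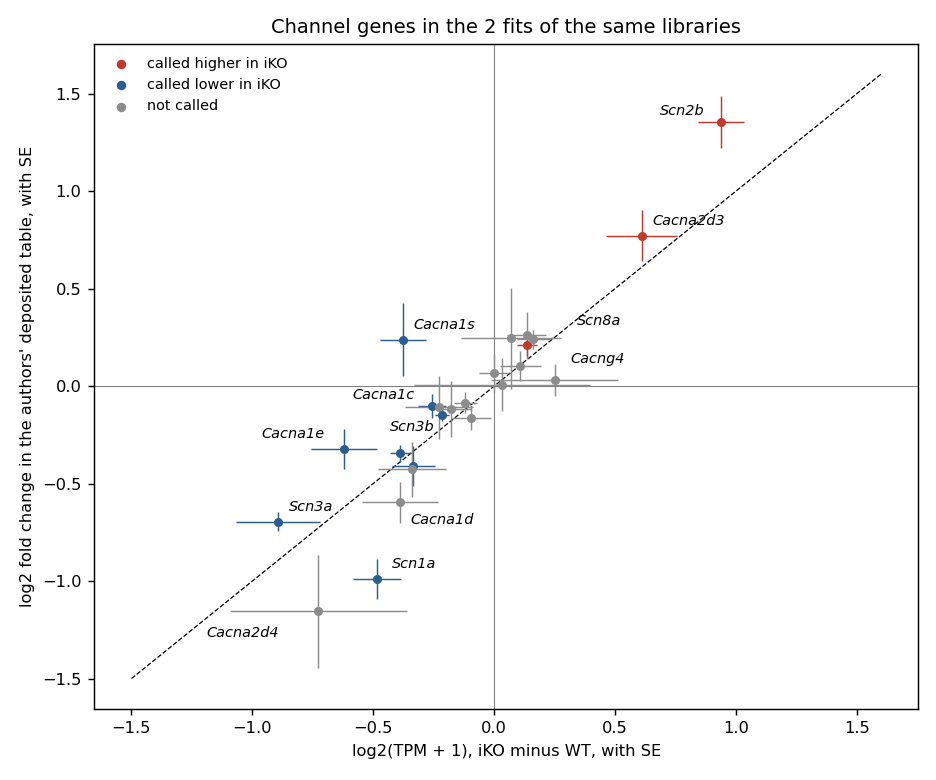
Each point is 1 of the 25 tested channel genes, with the log2(TPM + 1) difference and its SE on the horizontal axis and the log2 fold change and SE of the authors' deposited table on the vertical axis; colour gives the call on TPM and the dashed line marks equality. Cacna1s is the one gene with opposite signs, at -0.38 and 0.24.

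Genes that act with these channels were read from 5 lists. Of 86 listed genes 72 were tested, 14 were called higher and 26 lower (55.6% in all, beside 52.6% of all tested genes), with a median log2 difference of -0.06. Among sodium channel anchors and partners 0 of 15 tested were higher and 4 lower by limma. That is 26.7% called, beside 52.6% of all tested genes (20.7% higher, 31.9% lower). The counts were likewise 0 and 4 at an unadjusted p under 0.05. The authors' deposited table called 4 of the 15 higher and 4 lower, beside 17.1% and 16.7% of its rows with a p-value. The 4 called by limma included Unc80 and Fam155a, subunits of the NALCN sodium leak channel, with log2 differences of -0.64 and -0.25 (limma adjusted p = 0.00112 and 0.00890); Unc80 had 2.88 TPM in iKO against 5.08 in WT. The pore gene Nalcn itself, named here after its values were seen, had 5.28 and 5.15 TPM and was not called by limma, while its log2 fold change was 0.18 (adjusted p = 0.0345) in the authors' deposited table. Fgf14, an intracellular protein that binds sodium channel tails, fell from 10.4 (WT) to 8.61 (iKO) TPM (limma adjusted p = 0.0120). Ank2, a membrane anchor, fell from 134.7 (WT) to 127.2 (iKO) TPM (limma adjusted p = 0.0394). The authors' deposited table instead called Ank2 higher in iKO, at a log2 fold change of 0.11 (adjusted p = 2.19e-06).

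Among calcium channel partners 5 of 15 tested were higher and 5 lower, beside 20.7% and 31.9% of all tested genes. Calm3, which encodes calmodulin, the calcium sensor bound to these channels, rose from 127.3 (WT) to 157.4 (iKO) TPM (limma adjusted p = 0.000231). Calm3 was the least abundant of the calmodulin genes in this list, and limma called those genes in both directions. Rem2, a small GTPase that inhibits calcium channels, fell from 53.1 to 38.7 TPM (limma adjusted p = 0.00131), as did Stac2, an adaptor of L-type channels, from 2.06 to 1.03 TPM, and Jph3, which ties the cell membrane to calcium stores, from 49.7 to 41.9 TPM.

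Store and pump genes gave 1 higher and 6 lower of 14 tested, a called share of 50% beside 52.6% of all tested genes. Stim1, the sensor that opens store-operated channels, had 13.5 ± 1.08 (iKO) and 28.4 ± 1.39 (WT) TPM (SD, n = 4 each; limma adjusted p = 2.31e-06). The store pump gene Atp2a2 fell from 68.0 to 55.4 TPM, the release channel gene Itpr2 from 22.8 to 17.6 TPM, and Orai2, a store-operated pore, from 7.30 to 5.50 TPM, while the pump gene Atp2a3 rose from 4.13 to 5.69 TPM.

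Kinases, phosphatases and buffers that respond to calcium gave 5 higher and 7 lower of 18 tested, 66.7% called beside 52.6% of all tested genes (20.7% higher, 31.9% lower). The kinase gene Camk2a rose from 10.99 (WT) to 37.7 (iKO) TPM (log2 difference 1.71, limma adjusted p = 4.74e-05), whereas Camk2g fell from 97.7 to 65.6 TPM and Camk2d from 53.5 to 38.8 TPM, with limma adjusted p-values of 9.14e-07 and 0.000157. Camk1d and Nfatc4, a calcium-responsive kinase and a calcineurin-dependent factor, fell as well, the former from 9.74 to 6.06 TPM and the latter from 2.80 to 1.19 TPM. Of the REST complex, which represses sodium channel genes outside neurons, 3 of 10 tested were higher and 4 lower, again beside 20.7% and 31.9%. Rest fell from 4.98 to 4.16 TPM (limma adjusted p = 0.0218) and Hdac1 from 105.5 to 64.2 TPM, while the corepressor genes Rcor1 and Rcor2 rose, to 7.70 TPM from 6.57 and to 9.56 TPM from 8.08. Sin3a fell from 40.1 to 29.2 TPM, with a log2 fold change of -0.05 in the authors' deposited table.

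**Figure D5:**
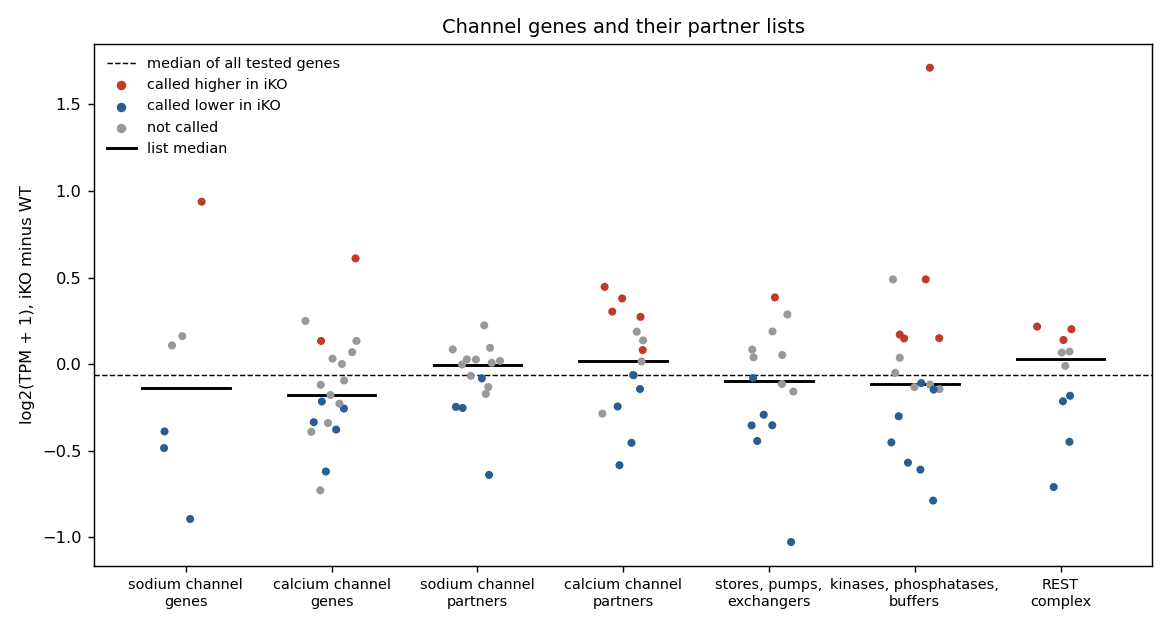
Each point is a tested gene, with its log2(TPM + 1) difference (iKO minus WT) on the vertical axis, coloured by call and grouped into the channel genes and 5 partner lists; bars are list medians and the dashed line is the median of all tested genes, -0.06. List medians run from -0.18 for calcium channel genes to 0.03 for the REST complex. Each list holds called genes in both directions except the sodium channel partners. These hold 4 lower and 0 higher of 15 tested, beside 31.9% and 20.7% of all tested genes.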

How the data were processed

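Per the labels' protocols, RNA of sorted cells was amplified by Smart-Seq2, and paired-end libraries were run on a HiSeq instrument. The authors deposited TPM for 55385 genes in 8 libraries, and a comparison table whose columns, per the file headers, are a mean normalized signal, a log2 fold change with its SE, a test score and p-values with adjusted p-values. The aligner, quantifier and build were not given in the sources used here; the only coordinates are those of RefSeq promoters. TPM keeps no depth, so no count test was run.

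Groups were compared with limma (version 3.58.1, R 4.3.3) fitted to log2(TPM + 1), with trend and robust moderation, for genes at 1 TPM or more in at least 4 libraries, with Benjamini-Hochberg adjustment over 16413 genes. Fold changes on this scale are smaller than true ones for low genes. Members under the filter were compared by an exact permutation test over 70 assignments. The procedure was tested on simulated data. Alternatives were other pseudocounts, filters and scalings, a length and GC trend removed by loess (span 0.3), protein-coding genes only, array weights, a sex score, the replicate block, each library left out, and the deposited comparison. Members, lists and the naming rule (called members at 5 TPM or more or with a log2 difference of at least 0.5, the main brain alpha subunits, up to 5 genes of each partner list by unadjusted p, and Rest) were chosen with earlier results of these data known. Members outside that rule are named because they are the subject. Values of 3 listed genes are not reported here, though counts include them.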

Additional observations from a re-analysis of the deposited data

Results flagged for a closer look

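In 3 of 50 groups of 4 libraries 1 library lay far from the other three, a rate that chance gives for about 1 group in 20. Cacnb4 had 8.88 TPM in iKO replicate 1 and 3.13 to 3.33 TPM in the other iKO libraries. In WT, Cacnb4 had 3.74 TPM in replicate 2 and 3.27 to 3.31 TPM in the others. Cacnb2 had 6.04 TPM in WT replicate 2 and 5.79 to 5.83 TPM in the others.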

How the results depend on the processing

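Channel genes called higher numbered 3 and became 6 after quantile normalization, 6 with the length and GC trend removed, 5 in the deposited comparison and 0 with the sex score, and leaving out 1 library gave 2 to 4. Channel genes called lower numbered 8 and became 6 after quantile normalization and 6 with the length and GC trend removed. They became 5 at a mean TPM of at least 5, 12 in the deposited comparison and 0 with the sex score. Leaving out 1 library gave 8 to 10. The deposited counts cover all 40 channel genes, not only those tested by limma. They include 3 genes under the filter, with Cacna1i higher and Scn4b and Scn7a lower. For the 3 channel genes under the filter whose groups did not overlap, the alternatives (another pseudocount, untransformed TPM) keep the order of libraries and could not alter that count. Partner genes called higher numbered 14 and became 8 with the replicate number as a block, 24 with the length and GC trend removed, 25 in the deposited comparison and 1 with the sex score; leaving out 1 library gave 9 to 13, with 9 without iKO replicate 1 or WT replicate 4. Partner genes called lower numbered 26 and became 17 with that trend removed and 1 with the sex score. With trimmed mean factors 20 partner genes were called higher and 18 lower, and quantile normalization gave the same counts. Of all calls 39.3% were higher, against 51.1% with trimmed mean factors, 49.7% after quantile normalization and 53.5% with the length and GC trend removed. Log2 differences changed sign with the sex score for Cacna1g (-1.46), Cacna1s (0.047), Cacng8 (-0.49) and Scn2a (-0.032), in the deposited comparison for Cacna1s (0.24), after quantile normalization for Cacna2d1 (0.026), and with the length and GC trend removed for Cacna2d1 (0.046) and Cacng8 (-0.016). Leaving out 1 library gave -0.25 to 0.24 for Cacna1g, -0.042 to 0.023 for Cacnb2, -0.056 to 0.36 for Cacnb4 and -0.067 to 0.23 for Cacng8. The mean filter removed genes by construction. The sex score does not overlap between the groups, so that fit cannot part genotype from sex composition. Otherwise the cause was not tested. Once each gene's group mean was subtracted, what remained in same-numbered iKO and WT libraries had correlations of -0.0445 to 7e-04. These values gave no sign that the numbers pair the libraries. With the replicate block channel genes called lower were 10 and the limma adjusted p of Cacng4 was 0.0636. Depth is unknown and sets no stated limit.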
